A study of Mus musculus with 5 samples.

Results

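Sub-cluster 3 of the small intestine (SI) group 2 innate lymphoid cells (ILC2s), called SI 3 here, was the SI sub-cluster whose list against all other SI cells held Il5 and Il13. Its members were the genes that the deposited SI table lists as higher in SI 3 or as higher in another SI sub-cluster than in SI 3. There were 229 such genes, of 338 genes listed anywhere for SI and 688 listed in the whole series. Of these, 108 were higher in SI 3 than in at least 1 other SI sub-cluster (32.0% of the 338) and 125 were lower (37.0%), with 4 genes in both directions against different sub-clusters. The 4 were Nfkbia, Gadd45b, Gem and Txk, of which Gem and Txk are named here after their listings were seen. The members were taken from the headers of the table, so their presence in a list is a description and not a finding.

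ILC2s are tissue-resident lymphocytes without antigen receptors that respond to epithelial alarmins such as IL-25, IL-33 and TSLP. They are the innate counterpart of T helper 2 cells: they depend on GATA3 and RORα and secrete IL-5, which feeds eosinophils, and IL-13, which acts on goblet cells and smooth muscle. In the small intestine, ILC2s answer tuft cell IL-25, and their IL-13 is part of the defence against worms.

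The study profiled ILC2s of SI, large intestine (LI), lung, pancreas and bone marrow (BM) of wild-type male C57BL/6 mice aged 6 weeks, with no treatment or transgene in any group, by droplet single-cell RNA sequencing. SI ILC2s were sorted as lineage-negative CD45+ KLRG1+ cells with reduced Thy1, whereas ILC2s of the other tissues were sorted as lineage-negative ST2+ CD25+ cells, so SI and LI cells differ in their gate as well as in their tissue. SI and LI were digested for 1.5 h with collagenase, lung for 1 h and pancreas for 0.5 h, and BM was flushed. Each tissue had 1 library, from 10 pooled mice, with SI, LI and lung made in one batch and BM and pancreas in another, so no listing has a replicate check. The authors divided the cells of each tissue into sub-clusters, 7 in SI and 36 in the 5 tissues together, and compared each sub-cluster with every other of its tissue (1 versus 1) and with all others together. The tables hold gene symbols alone. They give no level, fold change, p-value or cell number, the depth behind a listing is unknown, and the sources used here do not give the threshold a gene had to pass. A gene that is not listed did not pass that threshold, which does not show that its levels were equal.

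Markers of other cell types were looked for in the SI table. The authors discarded clusters that carried genes of other lymphoid, myeloid or endothelial cells, so the count is no test of purity. Of 81 markers of T cells, B and plasma cells, NK cells and ILC1s, myeloid cells, mast cells and basophils, intestinal epithelium, endothelium and stroma, 1 was listed anywhere for SI. It was Gzma, the gene of the cytotoxic protease granzyme A, which was lower in SI 3 than in SI 2. The study reports Gzma as a tissue feature of SI ILC2s, so its listing does not mark another cell type here. Of 10 IL-17 and ILC3 genes, Il17a and Ltb were listed for SI, and both were lower in SI 3 in 1 list, against SI 4 and SI 1. Of 7 MHC class II antigen presentation genes, 4 were listed for SI, of which 2 were lower in SI 3 and 0 higher. For comparison with both gene lists, 37.0% of all genes listed for SI were lower in SI 3 and 32.0% higher. The defining ILC2 genes Gata3, Il7r and Klrg1 were not in an SI 3 list, and since the lists hold differences between SI sub-clusters, they do not test the ILC2 identity that the sub-clusters share.

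Against all other SI cells together, 5 genes were higher in SI 3 (1.48% of the 338). These were Il5, Il13, Cxcr6, the receptor for the chemokine CXCL16, Tnfrsf9, the costimulatory receptor 4-1BB, and Dgat1, the enzyme of the final step of triglyceride synthesis. The lists against all of the other SI sub-clusters held 27 genes (SI 0), 17 (SI 1), 9 (SI 2), 24 (SI 4), 1 (SI 5) and 41 genes (SI 6), so SI 3 had the second shortest. The 5 genes lie on 4 chromosomes. Il5 (chr11:53720794-53725106, plus strand) and Il13 (chr11:53631324-53634702, minus strand) share a cytokine locus, whereas Tnfrsf9 lies at chr4:150914562-150946102, Cxcr6 at chr9:123806475-123811760 and Dgat1 at chr15:76502015-76511953 (mm10, GENCODE M21). All are protein-coding genes.

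Il5 was higher in SI 3 than in SI 0, SI 1, SI 2 and SI 5 and was not listed in either direction against SI 4 and SI 6. No other SI sub-cluster had Il5 as higher in any 1 versus 1 list, which makes Il5 1 of 23 genes that SI 3 alone carried as higher within SI. Il13 was higher in SI 3 than in SI 1, SI 2 and SI 5. SI 4 had Il13 as higher than the same 3 sub-clusters, and SI 6 had it as higher than SI 2, so the Il13 listing was shared within SI whereas the Il5 listing was not.

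Tnfrsf9 was higher in SI 3 than in SI 0, SI 1, SI 4 and SI 5. SI 2 also had Tnfrsf9 as higher, against SI 1 and SI 5. Cxcr6 was higher in SI 3 than in SI 1, SI 4, SI 5 and SI 6, and it was also higher in SI 0 (against SI 1 and SI 4) and in SI 2 (against SI 1, SI 4 and SI 6). Dgat1 had the same 4 opponents as Cxcr6, and was likewise higher in SI 0 (against SI 1 and SI 5), in SI 2 (against SI 1, SI 5 and SI 6) and in SI 4 (against SI 1). None of the 5 was higher in SI 3 against every one of the 6 other sub-clusters, and none was lower in SI 3 in any list. These comparisons share the cells of SI 3 and are not independent of each other.

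**Figure D1:**
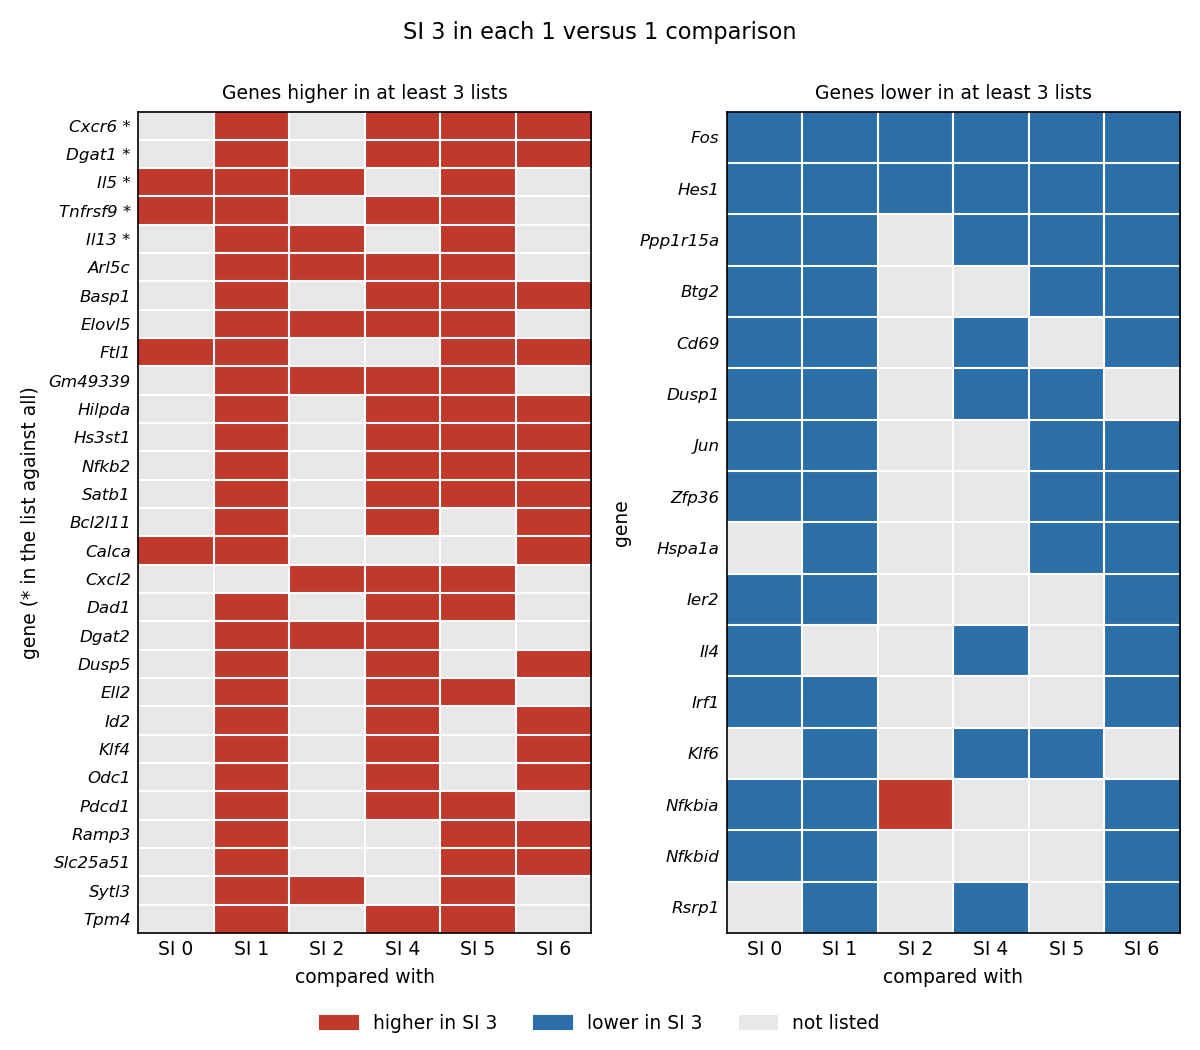
Genes listed in at least 3 of the 6 SI 3 comparisons, with 1 row per gene, 1 column per SI sub-cluster that SI 3 was compared with, and colour for higher in SI 3, lower in SI 3 or not listed. The 29 genes on the left were higher in at most 4 comparisons each, with 4 of them higher than in SI 0, and of the 16 genes on the right Hes1 and Fos were lower in SI 3 in all 6.

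The promoter windows of Il5 and Il13, the cytokine genes that the listing joins, and of Il4, their neighbour that was listed in the other direction, are shown because the 3 genes share 1 locus. Each runs 5′ to 3′ along the gene's own strand, from 250 bases before the start to 50 bases after it (RefSeq, GRCm38.p6). Capitals mark the GATA core (GATA or its reverse complement TATC), the letters that GATA factors such as GATA3 bind.
Il5 promoter, chr11:53720544-53720843, plus strand: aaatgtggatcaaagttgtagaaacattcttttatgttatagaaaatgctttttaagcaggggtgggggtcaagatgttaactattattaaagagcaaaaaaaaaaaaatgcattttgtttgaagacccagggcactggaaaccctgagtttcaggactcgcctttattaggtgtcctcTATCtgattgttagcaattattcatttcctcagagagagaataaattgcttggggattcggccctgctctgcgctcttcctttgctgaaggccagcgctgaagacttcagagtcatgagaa
Il13 promoter, chr11:53634653-53634952, minus strand: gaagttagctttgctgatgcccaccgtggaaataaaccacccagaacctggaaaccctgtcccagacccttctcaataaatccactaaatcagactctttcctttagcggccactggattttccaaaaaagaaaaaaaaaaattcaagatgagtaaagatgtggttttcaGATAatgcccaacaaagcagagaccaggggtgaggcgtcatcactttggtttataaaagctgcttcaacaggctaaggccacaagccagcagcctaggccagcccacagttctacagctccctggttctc
Il4 promoter, chr11:53618616-53618915, minus strand: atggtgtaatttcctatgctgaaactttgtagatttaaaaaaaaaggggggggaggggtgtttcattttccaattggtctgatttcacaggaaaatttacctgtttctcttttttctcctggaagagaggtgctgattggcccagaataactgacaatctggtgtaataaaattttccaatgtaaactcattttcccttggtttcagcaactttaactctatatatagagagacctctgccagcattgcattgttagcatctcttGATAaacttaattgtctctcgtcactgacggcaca

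Each of these 3 windows held the GATA core at 1 place, at base 180 of the Il5 window, base 171 of the Il13 window and base 266 of the Il4 window, counted from 1 at the 5′ end. The core is short and common: it was in 57.9% of all 32851 promoter windows. Windows were found for 4 of the 5 genes of the list against all, and 4 of their 5 windows held the core (a gene can have several windows), as did 46.7% of 122 windows of the genes higher in SI 3 and 47.2% of 142 windows of the genes lower in SI 3. The longer form AGATAA or TGATAA was in 2 of the 5 windows, in 11.5% and 11.3% of the windows of the genes higher and lower in SI 3, and in 18.6% of all windows. A match is a description of letters and not of a bound site.

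Along the cytokine locus the listings of SI 3 changed direction between neighbours. Between Il4 and Csf2 on chromosome 11 there are 13 protein-coding genes over 646.7 kb, of which 5 were listed for SI. Il5, Il13 and Csf2 were higher in SI 3 in 4, 3 and 2 of the 6 lists, whereas Il4 and Irf1 were lower in 3 lists each. Measured from the Il5 start, Il13 starts at −86.1 kb, Il4 at −102.1 kb and Irf1, an interferon-induced transcription factor gene, at 49.2 kb on the other side. Csf2, which encodes the myeloid growth factor GM-CSF, lies 528.9 kb away. Rad50, the DNA repair gene between Il13 and Il5, was not listed for SI.

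**Figure D2:**
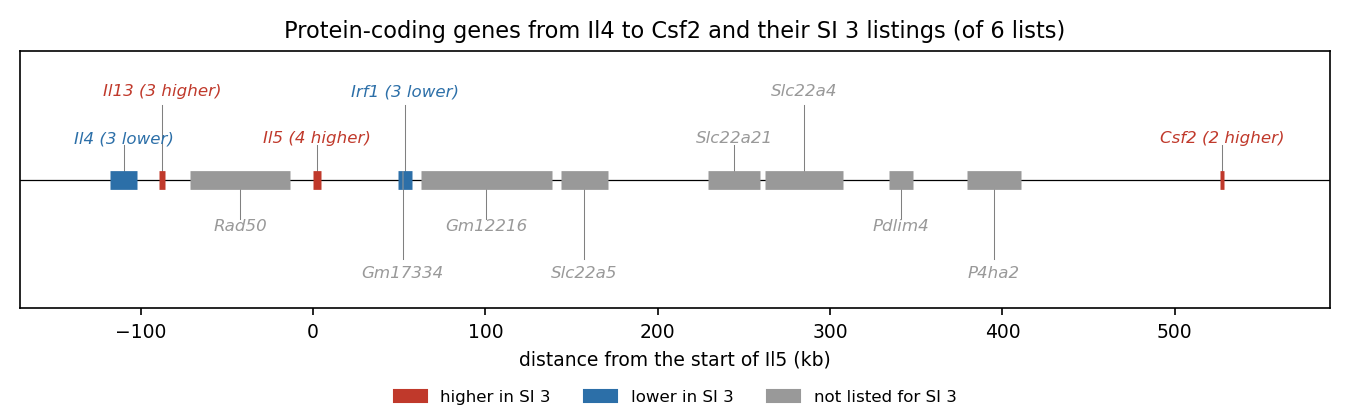
Protein-coding genes between Il4 and Csf2, drawn to scale against the distance from the Il5 start in kb, with colour for the direction of their SI 3 listings. Il13 and Il5 were higher in SI 3 in 3 and 4 of the 6 lists, whereas Il4 and Irf1 on their outer sides were lower in 3 lists each.

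Il4, whose product drives type 2 polarisation and IgE switching, was lower in SI 3 than in SI 0, SI 4 and SI 6. SI 0 had it as higher than SI 2, SI 3 and SI 5, whereas SI 4 and SI 6 had it as higher against SI 3 alone. Csf2 was higher in SI 3 than in SI 2 and SI 4, but SI 0, SI 1, SI 5 and SI 6 had it as higher than the same pair, so Csf2 did not set SI 3 apart from those. Il2, the T cell growth factor gene, was lower in SI 3 than in SI 6. Calca, the gene of the neuropeptide CGRP, was higher in SI 3 than in SI 0, SI 1 and SI 6, and SI 2 also had it as higher, against SI 0, SI 1, SI 5 and SI 6. Of the 11 type 2 cytokine and growth factor genes examined, 8 were listed for SI, and 4 of these were higher and 2 lower in SI 3, beside 32.0% and 37.0% of all genes listed for SI.

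The number of genes listed for SI 3 depended on the sub-cluster it was set against. Against SI 1, 83 genes were higher in SI 3 (24.6% of the 338) and 35 were higher in SI 1 (10.4%), the second largest sum among the 21 pairs of SI sub-clusters. Against SI 6, 26 genes were higher in SI 3 (7.69%) and 74 in SI 6 (21.9%). Against SI 4, the lists were of like length, with 39 genes higher in SI 3 (11.5%) and 37 in SI 4 (10.9%). Against SI 5, 42 genes were higher in SI 3 (12.4%) and 10 in SI 5 (2.96%). Against SI 0, 4 genes were higher in SI 3 (1.18%) and 32 in SI 0 (9.47%). Against SI 2, 18 genes were higher in SI 3 (5.33%) and 3 in SI 2 (0.888%). That sum of 21 genes was the smallest of the 21 SI pairs, whose sums had a median of 76 and reached 127.

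**Figure D3:**
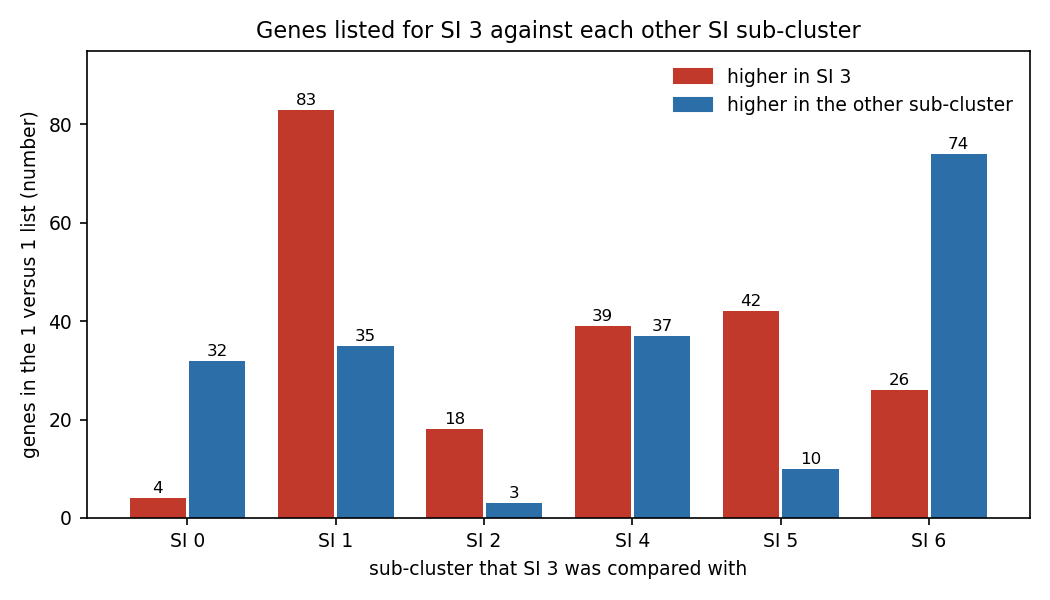
Number of genes in the 1 versus 1 lists of SI 3, with bars for genes higher in SI 3 and genes higher in the other sub-cluster. The longest list was the 83 genes higher in SI 3 than in SI 1, and the shortest were the 3 genes higher in SI 2 and the 4 genes higher in SI 3 than in SI 0.

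The shortest lists can be named in full. Il5, Calca, Tnfrsf9 and Ftl1, the gene of the ferritin light chain, were the genes higher in SI 3 than in SI 0. Hes1, a transcriptional repressor downstream of Notch, Gzma and Fos, an AP-1 gene, were the genes higher in SI 2 than in SI 3. Among the 18 genes higher in SI 3 than in SI 2, the first 3 as deposited were Il13, Csf2 and Cxcl10, the last an interferon-induced chemokine gene. The order within a deposited list has no stated meaning. The list against SI 4 opened with Csf2, Odc1 and Cxcr6 for SI 3 and with Il17a, Actn2 and Ubald2 for SI 4. The list against SI 1 opened with Ramp3, Vps37b and Crem for SI 3 and with Hspa1a, Jun and Dnajb1 for SI 1. The list against SI 5 opened with Dgat1, Ramp3 and Tnfrsf9 for SI 3 and with Hes1, Fos and Actb for SI 5. The list against SI 6 opened with Calca, Hs3st1 and Id2 for SI 3 and with Hspa1a, Hspa1b and Dnajb1 for SI 6.

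Genes recurred over the lists of SI 3 to different degrees. Of the 108 genes higher in SI 3, 46 were in 1 list, 33 in 2, 16 in 3 and 13 in 4, and no gene was in 5 or 6. Hence 62 genes (18.3% of the 338) were higher in at least 2 lists and 29 (8.58%) in at least 3. The 13 genes higher in 4 lists (3.85%) were Il5, Tnfrsf9, Cxcr6 and Dgat1 of the list against all, with Ftl1, Hilpda, Hs3st1, Basp1, Nfkb2, Satb1, Arl5c, Elovl5 and Gm49339. Il13, the fifth gene of the list against all, was in 3 lists, so the 9 further genes with 4 lists stood in more 1 versus 1 lists than Il13 and not in the list against all. Of these, Hilpda, Hs3st1, Basp1, Nfkb2 and Satb1 shared with Cxcr6 and Dgat1 the opponents SI 1, SI 4, SI 5 and SI 6. These listings were partly shared, since SI 2 had Hs3st1 and Basp1, and SI 0 had Hilpda, as higher against the same 4 opponents. Arl5c, Elovl5 and Gm49339 were higher in SI 3 than in SI 1, SI 2, SI 4 and SI 5, and Arl5c was in the list against all of SI 0 and higher there against the same 4.

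The lipid genes listed for SI were few. Dgat1 and Dgat2, which both add the last fatty acid to a triglyceride, and Hilpda, a lipid droplet protein that restrains triglyceride breakdown, were the 3 of 18 lipid storage and metabolism genes listed for SI, and each was higher in SI 3, beside 32.0% of all genes listed for SI. Hilpda was higher in 4 lists, but it was in the list against all of SI 0, where it was higher against the same 4 opponents. Dgat2 was higher in 3 lists, against SI 1, SI 2 and SI 4, and SI 0 had it as higher than SI 2. Elovl5, which lengthens polyunsaturated fatty acids and was not in that gene list, was higher in 4 lists of SI 3 and in 3 of SI 0.

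Receptors of the TNF family and of the costimulatory and inhibitory families were listed in both directions. Besides Tnfrsf9, Tnfrsf18, the gene of the costimulatory receptor GITR, was higher in SI 3, against SI 1 and SI 4, and Ltb, the lymphotoxin beta gene, was lower in SI 3 than in SI 1. Pdcd1, the gene of the inhibitory receptor PD-1, was higher in SI 3 than in SI 1, SI 4 and SI 5 and was higher in no other SI sub-cluster. Lilr4b, the gene of the immunoglobulin-like receptor Gp49a, was higher in SI 3 than in SI 4. Gm49339, whose annotated span on the same strand covers that of Lilr4b, was higher than in SI 1, SI 2, SI 4 and SI 5. Ctla4, the gene of another inhibitory receptor, was lower in SI 3 than in SI 4, and Cd69, an early activation gene whose product holds lymphocytes in tissue, was lower in SI 3 than in SI 0, SI 1, SI 4 and SI 6. Of the 6 costimulatory and inhibitory receptor genes listed for SI, 2 were higher and 2 lower in SI 3, beside 32.0% and 37.0% of all genes listed for SI, so their share was near that of SI genes in general.

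The IL-2 receptor chain genes Il2ra and Il2rb were higher in SI 3, Il2ra against SI 1 and SI 4 and Il2rb against SI 1 and SI 5. Il2ra, whose product CD25 was part of the gate of the other tissues but not of SI, was higher in no other SI sub-cluster. Ramp3, which pairs with the calcitonin receptor-like receptor to bind adrenomedullin and CGRP, was higher in SI 3 than in SI 1, SI 5 and SI 6. SI 0, SI 2 and SI 4 had Ramp3 as higher against the same 3 opponents, and Calca, a ligand gene of this family, was also higher in SI 4, against SI 1 and SI 6, and was in the list against all of SI 2, so neither gene set SI 3 apart.

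Chemotactic receptor and chemokine genes were divided. Of 6 chemotactic receptor genes listed for SI, 2 were higher and 3 lower in SI 3. Of 5 chemokine genes listed for SI, 3 were higher and 2 lower. Of all genes listed for SI, 32.0% were higher and 37.0% lower. Cxcr6 and Gpr65, a proton-sensing receptor gene that was higher in SI 3 than in SI 1 and SI 5, stood against 3 receptor genes that were lower in SI 3. These were Ccr9, the gut homing receptor gene, lower than in SI 4, Ccrl2, lower than in SI 0 and SI 6, and Gpr183, the oxysterol receptor gene, lower than in SI 6. Among chemokines, Cxcl2, which attracts neutrophils, was higher in SI 3 than in SI 2, SI 4 and SI 5. Cxcl2 was in the list against all of SI 6, where it was higher against the same opponents. Cxcl3 was higher in SI 3 than in SI 4, and Cxcl10 was higher than in SI 2. Cxcl1 was lower in SI 3 than in SI 1 and SI 6, and Ccl1 was lower than in SI 6.

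Transcription factor genes of the ILC2 lineage were listed as higher. Rora, which encodes a nuclear receptor required for ILC2 development, was higher in SI 3 than in SI 1 and SI 6. Id2, which encodes an inhibitor of E proteins that all innate lymphoid cells need, was higher than in SI 1, SI 4 and SI 6. Id2 was in the list against all of SI 0, where it was higher in 5 lists. Ikzf3, the gene of Aiolos, was higher in SI 3 than in SI 1. Hs3st1, a heparan sulfate sulfotransferase gene of the same gene list, was higher in 4 lists. Of 19 ILC2 identity genes, 6 were listed for SI, and 5 of these were higher and 0 lower in SI 3, beside 32.0% and 37.0% of all genes listed for SI. Each of the 5 was higher against SI 1, the opponent with the longest list of genes higher in SI 3, and Ikzf3 against SI 1 alone. Il2ra was the only one of the 5 that no other SI sub-cluster carried as higher. Satb1, the gene of a chromatin organiser, was higher in 4 lists, and Klf4, a zinc finger factor gene, was higher against SI 1, SI 4 and SI 6. SI 0 and SI 2 had Klf4 as higher against the same opponents.

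NF-kB pathway genes were listed in both directions. Nfkb2, which encodes the p100 precursor of the alternative pathway, was higher in 4 lists, and Nfkbie, which encodes the inhibitor IkB epsilon, was higher against SI 1 and SI 5. Rel, the c-Rel subunit gene, was higher against SI 1 and SI 2, Nfkb1 against SI 1, Nfkbiz against SI 2 and Traf1 against SI 5. Nfkb1, Nfkb2 and Nfkbie were higher in no other SI sub-cluster. Nfkbid, an atypical inhibitor gene, was lower in SI 3 than in SI 0, SI 1 and SI 6, Tnfaip3, the gene of the deubiquitinase A20, was lower than in SI 0 and SI 6, and Birc3 was lower than in SI 6. Nfkbia, the IkB alpha gene, went both ways: it was higher in SI 3 than in SI 2 and lower than in SI 0, SI 1 and SI 6. In SI 2, Nfkbia was lower than in every other SI sub-cluster, and Nfkbid was lower than in SI 0, SI 1, SI 4, SI 5 and SI 6. In SI 4, Nfkbia was lower than in SI 0, SI 1 and SI 6. Hence neither gene set SI 3 apart. In all, 7 of the 10 NF-kB pathway genes listed for SI were higher in SI 3 and 4 were lower, with Nfkbia in both counts, beside 32.0% and 37.0% of all genes listed for SI.

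Hes1 and Fos headed the genes lower in SI 3. Of the 125 genes lower in SI 3, 88 were in 1 list, 21 in 2, 8 in 3, 5 in 4, 1 in 5 and 2 in 6, so 37 (10.9% of the 338) were in at least 2 lists, 16 (4.73%) in at least 3 and 8 (2.37%) in at least 4. Both were lower in SI 3 than in each of the 6 other sub-clusters. Ppp1r15a, which encodes the stress-induced phosphatase subunit GADD34, was lower in 5 lists, with SI 2 as the exception. Zfp36, the gene of tristetraprolin, which degrades cytokine mRNAs, Jun, the AP-1 partner of Fos, and Btg2, an antiproliferative gene, were lower in SI 3 than in SI 0, SI 1, SI 5 and SI 6. Dusp1, the gene of a phosphatase that switches off MAP kinases, was lower than in SI 0, SI 1, SI 4 and SI 5, and Cd69 completed the 8 genes. SI 2 and SI 4 shared part of this. Zfp36 and Jun were lower in SI 2 than in the same SI 0, SI 1, SI 5 and SI 6, and Btg2 and Ppp1r15a than in SI 0, SI 1 and SI 6. In SI 4, Zfp36, Jun and Btg2 were lower than in SI 0, SI 1 and SI 6, and Hes1 was lower than in SI 0, SI 1, SI 5 and SI 6.

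Immediate early genes are those that cells switch on within minutes of a stimulus. Of 23 AP-1 and immediate early transcription factor genes, 18 were listed for SI, and 12 of these were lower and 4 higher in SI 3, beside 37.0% and 32.0% of all genes listed for SI. The 12 lower genes were Fos, Fosb, Jun, Junb, Atf3, Nr4a1, Nr4a2, Klf2, Klf6, Ier2, Ier5 and Maff, and the 4 higher genes were Fosl2, Nr4a3, Klf4 and Crem. Within the Fos family the listings thus differed: Fos was lower in 6 lists and Fosb in 2 (against SI 0 and SI 1), whereas Fosl2 was higher against SI 1 and SI 6. Within the Nr4a family of nuclear receptor genes, Nr4a1 was lower than in SI 0 and SI 6 and Nr4a2 was lower than in SI 6, whereas Nr4a3 was higher than in SI 1 and SI 5. SI 2 and SI 4, like SI 3, had Jun and Ier2 as lower, each against at least SI 0 and SI 6. Of the feedback and mRNA decay regulators, 14 were listed for SI, of which 8 were lower and 3 higher in SI 3, with Gadd45b in both counts, beside 37.0% and 32.0% of all genes listed for SI. The phosphatase genes among them were divided. Dusp1 and Dusp2 were lower in SI 3, whereas Dusp5 was higher than in SI 1, SI 4 and SI 6, and Dusp10 was higher than in SI 1. SI 2 had Dusp5 as higher against the same opponents as SI 3.

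Heat shock genes were lower in SI 3 chiefly against SI 1 and SI 6. Hspa1a, an inducible HSP70 gene, was lower in SI 3 than in SI 1, SI 5 and SI 6. Hspa1b, Dnajb1, Hsp90aa1 and Hspe1 were lower in SI 3 than in SI 1 and SI 6. Hspa1a was in the lists against all of SI 1 and SI 6. It was also lower in SI 2 against the same opponents as in SI 3, and in SI 0, SI 4 and SI 5 against SI 1 and SI 6. Hence Hspa1a did not set SI 3 apart from SI 2. Of the 12 heat shock and protein folding genes listed for SI, 8 were lower in SI 3 and 1, Dnajb6, was higher, beside 37.0% and 32.0% of all genes listed for SI. Immediate early and heat shock genes are also known to be induced while tissue is digested. The SI sub-clusters came from 1 library and shared a digestion of 1.5 h, and the part of digestion in these listings was not tested.

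**Figure D4:**
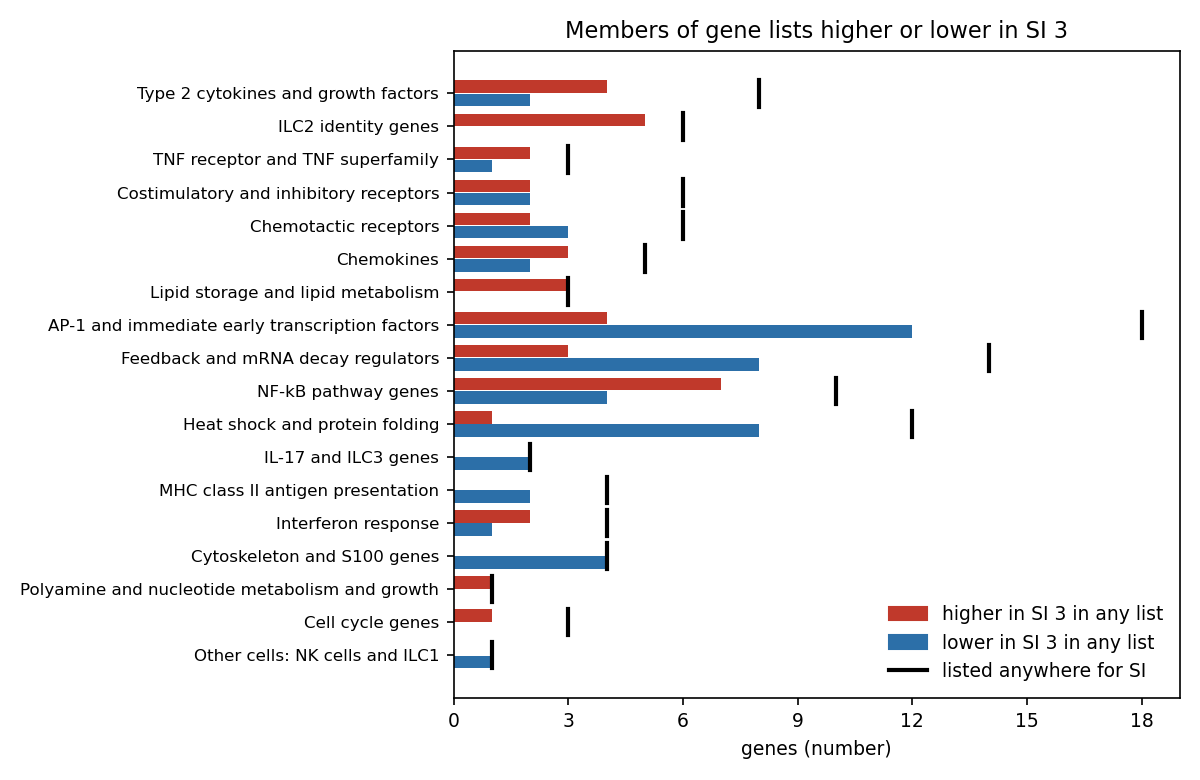
Number of genes of each gene list that were higher or lower in SI 3 in at least 1 of the 6 lists, with a black bar for the number listed anywhere for SI. AP-1 and immediate early genes had 4 higher and 12 lower of 18, heat shock genes 1 and 8 of 12, and ILC2 identity genes 5 and 0 of 6. Each of these 5 was higher against SI 1. Of all genes listed for SI, 32.0% were higher and 37.0% lower.

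The promoters of genes lower in SI 3 were searched for the cyclic AMP response element TGACGTCA, the letters that CREB and related factors bind and a known element of immediate early promoters. It is a palindrome, so both strands read the same. Of the genes lower but not higher in SI 3, 12 of 100 with a window held it (12.0%), against 2 of 86 genes higher but not lower (2.33%). Of the other genes listed for SI, 7 of 79 held it (8.86%), and of the genes of the promoter table as a whole 549 of 27025 (2.03%). These shares are descriptions and were not tested. The sites of the 4 genes lower in at least 3 lists and of both genes higher in SI 3 are printed as 30 bases around the element, which is in capitals, 5′ to 3′ along the gene's strand (RefSeq, GRCm38.p6).
Ppp1r15a, chr7:45526262-45526291, minus strand: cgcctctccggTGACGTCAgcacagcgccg
Btg2, chr1:134079303-134079332, minus strand: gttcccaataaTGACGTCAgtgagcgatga
Dusp1, chr17:26508597-26508626, minus strand: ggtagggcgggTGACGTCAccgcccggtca
Nfkbid, chr7:30422344-30422373, plus strand: cgttagcgccgTGACGTCAgcgcgcggcgt
Ell2, chr13:75707275-75707304, plus strand: aagacgagacaTGACGTCAgataagattaa
Elovl5, chr9:77917357-77917386, plus strand: ccgcgccattgTGACGTCAcggtcagccca

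Ell2, which encodes a transcription elongation factor and was higher in SI 3 than in SI 1, SI 4 and SI 5, and Elovl5 were the 2 exceptions that held the element and were higher. The AP-1 element TGANTCA, on either strand, was in 1 of the 5 windows of the list against all, in 4.92% of the windows of genes higher in SI 3, in 4.93% of those lower and in 7.81% of all windows. The heat shock element letters GAANNTTC were in 4.92% of the windows of genes higher in SI 3, in 9.86% of those lower and in 7.86% of all windows.

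Smaller gene groups were lower in SI 3 or divided. Il17a, the IL-17A cytokine gene, was lower in SI 3 than in SI 4, as were the MHC class II genes H2-Aa and H2-Eb1, and Actn2 and Ubald2 of the same list. Vim, Lgals1 and Crip1 of the cytoskeleton and S100 list were lower in SI 3 than in SI 4, and Actb, the beta-actin gene, was lower than in SI 5. The 4 genes of that list that were listed for SI were thus lower in SI 3, each in 1 list, and 0 were higher, beside 37.0% and 32.0% of all genes listed for SI. The same shares apply to the counts that follow. Of 29 interferon response genes, 4 were listed for SI. Of these, Isg15 and Cxcl10 were higher in SI 3 than in SI 2, whereas Irf1 was lower than in SI 0, SI 1 and SI 6. Of 18 cell cycle genes, 3 were listed for SI, and 1, the histone variant gene H2afz, was higher in SI 3, against SI 1. Odc1, which starts polyamine synthesis, was higher in SI 3 than in SI 1, SI 4 and SI 6, and SI 0 had it as higher against the same opponents.

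Several further genes were higher in SI 3 in 3 lists. Basic cell machinery was represented by Tpm4, a tropomyosin gene, and Dad1, of the complex that attaches N-linked sugars, both against SI 1, SI 4 and SI 5. SI 0 had Dad1 as higher against the same opponents, and SI 2 had Tpm4 as higher against these and SI 6. Slc25a51, the mitochondrial NAD+ carrier gene, was higher in SI 3 against SI 1, SI 5 and SI 6. Sytl3, a gene of vesicle transport, had the opponents of Il13: SI 1, SI 2 and SI 5. Sytl3 was in the list against all of SI 4, where it was higher than in SI 0, SI 2 and SI 5. Bcl2l11, the gene of the death-promoting protein BIM, was higher against SI 1, SI 4 and SI 6. Bcl2l11, Slc25a51 and Pdcd1 were, like Il5, Nfkb2 and Ftl1, among the 23 genes that no other SI sub-cluster carried as higher.

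The 33 genes higher in exactly 2 lists repeated the same opponents. For 19 of them these were SI 1 and SI 5: besides Crem, Gpr65, Nr4a3, Il2rb, Nfkbie and Dnajb6, they included Arf4, Bpnt1, Eif4e, Emd, Eprs, Gch1, Gla, Gpx4, Isy1, Tent5a, Tpst2 and Usmg5. Eif4e, which encodes the protein that binds the mRNA cap in translation, and Gch1, which starts tetrahydrobiopterin synthesis, were higher in no other SI sub-cluster, as was Gla, a lysosomal galactosidase gene. Gpx4 encodes the enzyme that reduces lipid peroxides. The pairs SI 1 with SI 6 (Rora, Fosl2, Lmo4, Sub1 and D16Ertd472e) and SI 1 with SI 4 (Il2ra, Tnfrsf18, Ptp4a1, Tgm2 and Pcyt1a) held 5 genes each. Prr7 was higher than in SI 1 and SI 2, with Rel, and Gjb2, a connexin gene, than in SI 4 and SI 6.

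In the other tissues, the sub-cluster with the most of the 5 genes was LI 1. All 5 genes of the SI 3 list against all (100%) were in the LI 1 list against all, which held 14 genes, so they made up 35.7% of it. Of all genes listed for SI, 3.55% were in that LI 1 list. SI and LI were compared within their own tables, so this is a match of listings and not of levels. Il5, Tnfrsf9, Dgat1 and Cxcr6 were each higher in 4 of 6 lists in SI 3, against 6, 6, 5 and 4 of 7 lists in LI 1. Il13 was higher in 3 lists in SI 3 and in 3 in LI 1. LI 1 had no gene listed as higher against LI 7.

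With the 5 genes included, 83 of the 108 genes higher in SI 3 (76.9%) were also higher in LI 1 in some list, where they made up 53.9% of 154 genes, beside 31.1% of all genes listed for SI. Of the 125 genes lower in SI 3, 77 (61.6%) were also lower in LI 1, where they made up 42.3% of 182 genes, beside 31.4% of all genes listed for SI. Opposite listings were fewer, with 10 genes higher in SI 3 and lower in LI 1 (9.26% of the 108) and 4 lower in SI 3 and higher in LI 1 (3.20% of the 125). Csf2 was among the opposite ones: it was higher in SI 3 in 2 of 6 lists and lower in LI 1 in 3 of 7, against LI 0, LI 2 and LI 7. Il4 was lower in both, in 3 of 6 lists of SI 3 and 4 of 7 lists of LI 1. Of the 29 genes higher in at least 3 lists of SI 3, 28 were higher in LI 1 in some list and 1 was lower. Sytl3 was that gene: the LI table lists it both as higher and as lower in LI 1 than in LI 3, so its direction there is not known. Ftl1 was the gene with no LI 1 listing. Each of the 16 genes lower in at least 3 lists of SI 3 was lower in LI 1 in some list, and 0 were higher. Hes1 and Fos were lower in 6 of 6 lists in SI 3 and in 6 of 7 in LI 1.

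Lung 2 also shared genes with SI 3, and some of these were shared with LI 1 too. Of the 108 genes higher in SI 3, 20 (18.5%) were in the lung 2 list against all, 69.0% of its 29 genes, beside 7.99% of all genes listed for SI. They included Dgat1, Calca, Ramp3, Hilpda, Hs3st1, Odc1, Rora, Crem, Rel, Dusp5 and Dad1, but neither Il5 nor Il13. Dgat1 and Calca were also in the LI 1 list against all. Ramp3, Hilpda, Hs3st1, Odc1, Dusp5 and Dad1 were higher in LI 1 in some list. In any 1 versus 1 list, 41 of the 108 genes (38.0%) were higher in lung 2, beside 24.9% of all genes listed for SI, and 0 were lower. Il5 was higher in lung 2 than in lung 0 and was in no other lung list. Of the 125 genes lower in SI 3, 18 were also lower in lung 2 (14.4%, and 33.3% of its 54 lower genes), beside 5.92% of all genes listed for SI, and 26 were higher (20.8%), beside 24.9%. Lung 2 cells were sorted by another gate and digested for a shorter time than SI 3 cells, and the part of either was not tested.

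Elsewhere the 5 genes separated. Il13 was also in the list against all of LI 6, where it was higher than in LI 0, LI 2, LI 3, LI 4 and LI 5 and Il5 was higher than in LI 3 alone. Cxcr6 was also in the list against all of BM 5, and Dgat1 in that of lung 2. Il5, Il13 and Tnfrsf9 had no listing in any direction in BM or pancreas, and Il13 and Tnfrsf9 none in lung. Over the 36 sub-clusters, Il5 and Tnfrsf9 were in 2 lists against all each (SI 3 and LI 1), and Il13, Cxcr6 and Dgat1 in 3 each. Of the 29 sub-clusters of the other tissues, LI 1 was the one with more than 1 of the 5 genes in its list against all.

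**Figure D5:**
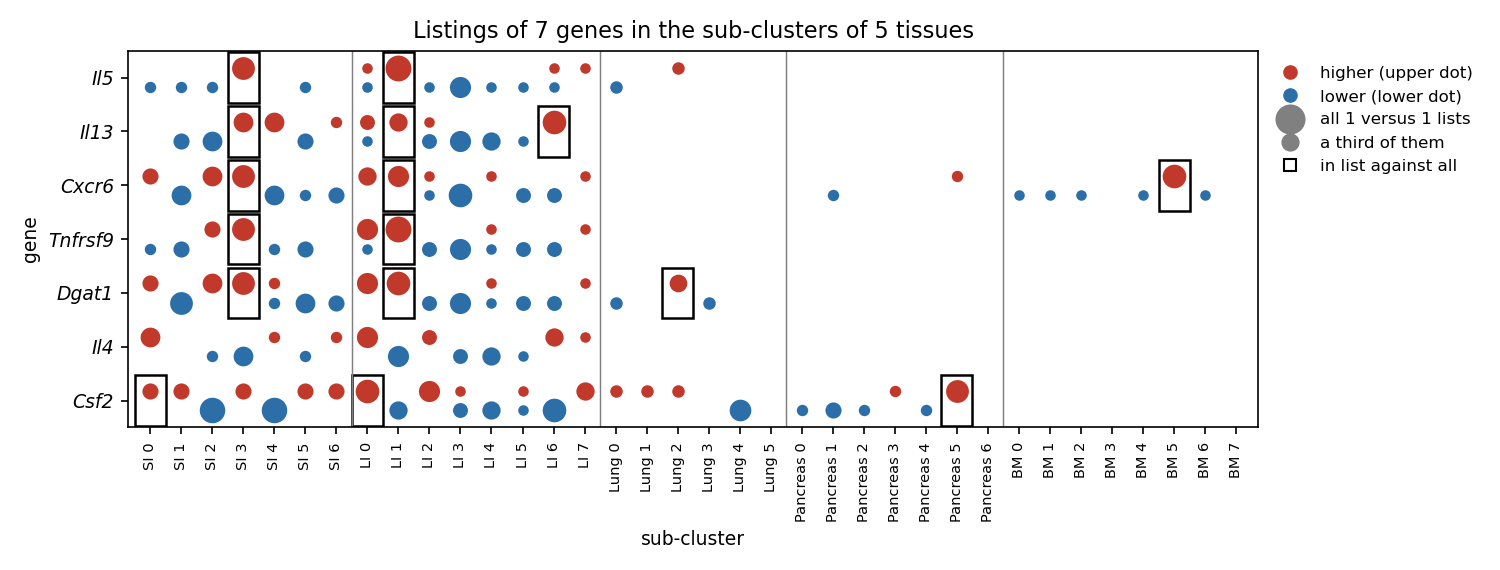
Listings of the 5 genes of the SI 3 list against all, and of Il4 and Csf2, in the 36 sub-clusters, with dot area for the share of the sub-cluster's 1 versus 1 lists that hold the gene as higher (upper dot) or lower (lower dot) and boxes for the lists against all. The column of boxes over the first 5 genes is complete in SI 3 and LI 1, whereas Il13 is boxed alone in LI 6, Cxcr6 in BM 5 and Dgat1 in lung 2.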

How the data were processed

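ILC2s of 5 tissues were measured by single-cell RNA sequencing. Per the submitters' processing notes and the methods of the study, the authors aligned reads to mm10 with Cell Ranger, removed cells with few UMIs or a high mitochondrial share and genes found in few cells with scater, and log-normalised and clustered the cells of each tissue with Seurat in R 3.6.1. The processing notes name version 2 of Seurat, and the methods versions 2 and 3 for the single-cell work as a whole. The sources used here do not say how doublets were treated. Clusters that carried genes of other lymphoid, myeloid or endothelial cells were discarded by the authors; the sources used here do not say whether this came before the sub-clusters were made. The deposited tables hold gene symbols for each 1 versus 1 comparison and for each comparison against all, with no count, level, fold change or p-value, so neither the depth nor the precision of a listing is known. These lists are the authors' own marker calls, and they are the measurement described.

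All 262 list columns were read, with NA as an empty list, and list membership was counted in Python 3.11.15. No test was made, since each tissue had 1 library and the tables hold no values per cell. The reader was tested on simulated lists. The share of a count is given over the 338 genes listed anywhere for SI, since the genes that the authors tested are not all named. Of the 229 symbols, 227 (99.1%) matched 1 gene of GENCODE M21. Promoter windows came from RefSeq (GRCm38.p6) and were found for 89 of the 108 genes higher and 103 of the 125 genes lower in SI 3. The names H2afz and Usmg5 are as deposited, with H2az1 and Atp5md as the current symbols.

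Genes named were those of the list against all, those higher in at least 2 or lower in at least 4 of the 6 lists, the first 3 as deposited of each list and members of the 24 gene lists examined. Members and lists were chosen with earlier results of these data known. Alternatives were other minimum numbers of lists, other definitions of the overlap with LI 1, joined synonyms and leaving out each opponent.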

Additional observations from a re-analysis of the deposited data

How the results depend on the processing

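Counts of genes listed for SI 3 depended on how many of the 6 comparisons had to list a gene. Genes higher in SI 3 numbered 108 in at least 1 list, 62 in at least 2, 29 in at least 3 and 0 in every list, and genes lower in SI 3 numbered 125, 37, 16 and 2. The genes higher in at least 3 lists and lower in none were 29, against the 5 genes of the list against all. Leaving out each opponent in turn gave 84 to 108 genes higher and 84 to 124 lower. The lowest count of higher genes came without SI 1 and the lowest count of lower genes without SI 6. Leaving out genes listed both ways gave 104 and 121.

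The overlap of 5 genes with LI 1 was 5 in any LI 1 list, 0 in every LI 1 list, and 11 when genes of any SI 3 list were set against the LI 1 list against all. With synonyms joined, an alternative chosen after seeing the data because Fam46a and Tent5a name 1 gene, it was 12. Joining synonyms left the counts of 108, 125 and 5 as they were. No paired analysis was possible because each tissue had 1 library and the results come from no test. The lists give no cell numbers, so a short list against SI 0 or SI 2 may reflect few cells or a small difference, and these cannot be told apart.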

Other observations

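The genes described here were chosen after their listings were seen. Ferritin was listed through both chains: Ftl1 was higher in SI 3 than in SI 0, SI 1, SI 5 and SI 6, and Fth1, the heavy chain gene, was higher than in SI 6. Neither was higher in another SI sub-cluster in any 1 versus 1 list. Sar1a, whose product starts vesicle budding from the endoplasmic reticulum, was higher in SI 3 than in SI 1, and Arf4, a Golgi GTPase gene, was higher than in SI 1 and SI 5.

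Srsf3, Tra2b, Clk1 and Pnn, genes of mRNA splicing or its control, were lower in SI 3 than in SI 6, whereas Isy1, a splicing factor gene, was higher in SI 3 than in SI 1 and SI 5. Gm42418 was also lower in SI 3 than in SI 6. It overlaps ribosomal RNA sequence and now has the symbol Rn18s-rs5. Reads of such a gene can come from ribosomal RNA, and the part of RNA quality in the SI 6 listings was not tested. Tmem176a and Tmem176b, a pair of neighbouring membrane protein genes, were higher in SI 3 than in SI 4.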
